A study of Mus musculus with 12 samples.

Results

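The Zfp-named genes are the mouse genes whose symbol is Zfp followed by a number, most of which code for zinc finger proteins. The members described here were the protein-coding ones with a mean expected count of 200 or more over the 6 total mRNA libraries. Of 43432 gene identifiers in the tables, 365 were protein-coding Zfp genes, 227 of these were members, and 138 lay under the minimum, of which 15 had no count in any total library. The members were chosen by their level in total mRNA, which is given here only as a description. The last 3 genes inside the minimum were Zfp940, Zfp454 and Zfp444 with mean counts of 201.8, 205.5 and 208.0, and the first 3 outside it were Zfp747, Zfp11 and Zfp661 with 198.5, 197.8 and 196.7.

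The cells were adult neural stem cells (NSCs) of wild-type male C57BL/6 mice aged 6 to 8 weeks, taken from the subventricular zone, where the wall of the lateral ventricle goes on making neurons. They grew as monolayers with EGF and bFGF for 4 days in folic acid, the vitamin that carries single-carbon units, at 1.5 µM (called LF), at 10 µM (MF) or at 80 µM (HF), and MF was the dose the others were set against. At each dose, polysome mRNA and total mRNA were sequenced after poly(A) selection, with 2 libraries in each of the 6 groups. Polysome mRNA came from the sucrose gradient fractions of cell lysate that hold mRNAs carrying several ribosomes, after cycloheximide had fixed the ribosomes in place, and total mRNA came from whole cells. The sources call the replicates biological without stating whether separate cultures or animals gave them, so p-values here measure the spread between these libraries.

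A classical zinc finger is a short fold in which a pair of cysteines and a pair of histidines hold a zinc ion, and a run of such fingers can read a stretch of DNA. The largest group of zinc finger genes in mammals adds a KRAB box, which recruits the corepressor Trim28 and through it histone methylation and heterochromatin protein, and many of these genes lie in clusters and silence retroelements or hold imprints. Other Zfp genes share only the name: some bind RNA, some act on ribosomes, and some are ligases for ubiquitin or SUMO.

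The repeated unit is printed for 4 of the members lowest and 4 of the members highest in polysome over total mRNA. They are the most extreme called members with at least 5 fingers and whole counts in every library. Over the members, GC content differed along that order, in the fingers and in the rest of the coding sequence alike. Each sequence is the first finger that the pattern found in the longest coding sequence of GENCODE M21, read 5′ to 3′ on the gene's own strand within a coding exon, on build GRCm38 (mm10). Capitals mark the codons of the cysteines and histidines of the finger pattern, taken at the closer spacing of the cysteines where more than one fits.
Zfp445 (chr9:122853399-122853461, minus strand): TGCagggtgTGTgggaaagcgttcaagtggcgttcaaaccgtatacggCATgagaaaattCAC
Zfp871 (chr17:32775555-32775617, minus strand): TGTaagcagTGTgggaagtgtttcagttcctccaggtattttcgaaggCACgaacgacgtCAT
Zfp433 (chr10:81719987-81720049, plus strand): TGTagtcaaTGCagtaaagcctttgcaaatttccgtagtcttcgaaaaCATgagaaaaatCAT
Zfp182 (chrX:21031177-21031239, minus strand): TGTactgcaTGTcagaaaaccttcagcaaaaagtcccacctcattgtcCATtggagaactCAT
Zfp623 (chr15:75947557-75947619, plus strand): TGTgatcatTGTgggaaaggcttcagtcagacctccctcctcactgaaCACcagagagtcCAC
Zfp637 (chr6:117845186-117845248, plus strand): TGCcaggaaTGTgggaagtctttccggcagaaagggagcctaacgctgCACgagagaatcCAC
Zfp954 (chr7:7115884-7115946, minus strand): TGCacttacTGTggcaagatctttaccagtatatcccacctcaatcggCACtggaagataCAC
Zfp410 (chr12:84329882-84329950, plus strand): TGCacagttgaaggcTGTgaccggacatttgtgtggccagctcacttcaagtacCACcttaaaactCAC
Over the whole coding sequence, GC content was 44.7% for Zfp445, 45.3% for Zfp871, 38.5% for Zfp433 and 41.3% for Zfp182. It was 51.1% for Zfp623, 53.3% for Zfp637, 50.2% for Zfp954 and 50.2% for Zfp410. The single fingers shown did not all follow that order, with 49.2% GC in that of Zfp445 and 46.0% in that of Zfp954.

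Libraries held between 24193468 and 28170296 counts for polysome mRNA and between 20506797 and 23593252 for total mRNA. Replicates differed by more than sampling noise in every group, with a chi-square over degrees of freedom of 15.5, 23.7 and 143.1 in polysome MF, HF and LF and of 2.77 to 4.98 in total mRNA, so the polysome LF pair stood apart. Marker genes of NSCs summed to 7225 to 8987 TPM (a level per length) in polysome and 6724 to 8508 TPM in total libraries. Those of microglia, endothelium and ependyma summed to at most 2.42 TPM in any library, and those of mural and mesenchymal cells to 216 to 459 TPM in polysome libraries, against 43.8 to 84.0 TPM in total libraries, with Col1a1 under 1 TPM on average in total mRNA. Neuronal markers summed to 46.9 to 98.9 TPM in polysome and 154 to 169 TPM in total libraries, those of the oligodendrocyte lineage to 157 to 336 and 348 to 432 TPM, and those of astrocytes to 10.1 to 29.5 and 30.3 to 57.1 TPM. The part of these cells in the results was not tested. In bulk libraries, fewer cells of a type and less RNA per cell cannot be told apart.

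The first comparison asked how much of each Zfp mRNA was in the polysome fraction. Zfp mRNAs were low there: of the 227 members, 161 (70.9%) were called lower in polysome than in total mRNA over the 3 doses, 25 (11.0%) were called higher, and 41 were not called. A call needed an adjusted p under 0.05 in edgeR's quasi-likelihood test, adjusted by Benjamini-Hochberg over all 14421 genes tested, and a fold change above 1.2. Of all genes tested, 71.0% were called, 38.4% lower and 32.7% higher, and of the 9577 protein-coding genes at the same minimum level, 35.9% and 36.9%. The median log2 ratio of the members was -1.03, with quartiles of -2.08 and -0.23, against -0.09 over all genes tested. Because the counts are scaled to library composition, this ratio places a gene against the typical mRNA and not against the amount of RNA in each fraction.

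Large differences were frequent. A fall of more than 2-fold was called for 115 members (50.7%, against 21.8% of all genes tested), of more than 4-fold for 62 (27.3%, against 9.48%), and of more than 8-fold for 27 (11.9%, against 4.43%). More than 2-fold higher and called were 4 members (1.76%, against 11.1% of all genes tested). In 151 members (66.5%) all 6 polysome libraries lay below all 6 total libraries, which held for 29.5% of all genes tested. In 15 (6.61%) all polysome libraries lay above, against 22.8% of all genes, and in 61 the fractions overlapped.

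**Figure D1:**
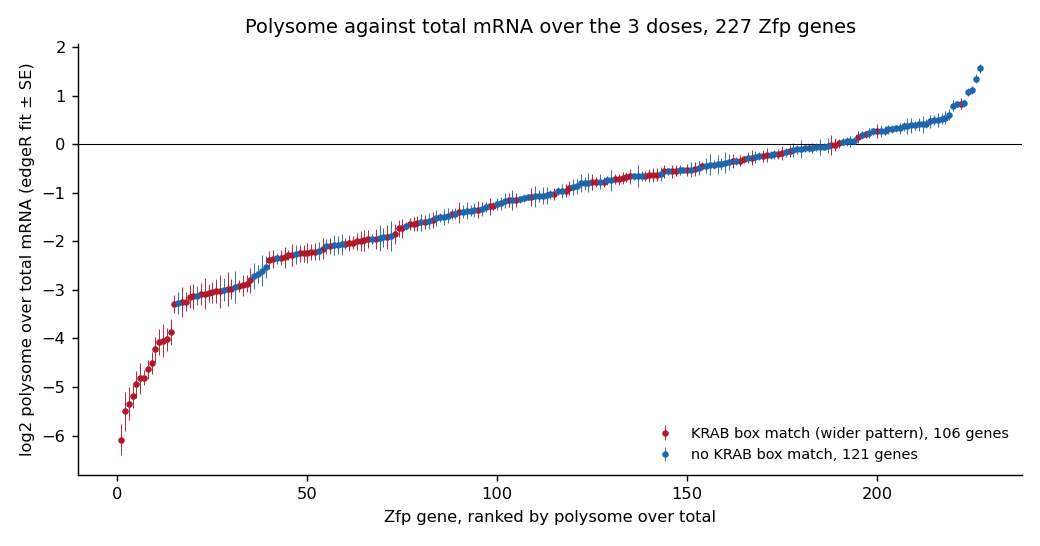
Log2 ratio of polysome to total mRNA over the 3 doses (vertical axis, edgeR fit with standard error) for each of the 227 Zfp genes in rank order (horizontal axis), coloured by whether the protein matched the wider KRAB box pattern. The ratios run between -6.09 and 1.57 and most lie below 0. All of the 8 lowest genes match the wider pattern, which was added after the data had been seen. Only Zfp871 among these 8 matches the first pattern.

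Summed over the members, the Zfp mRNAs took 0.504% to 0.588% of the counts of a polysome library and 0.906% to 0.950% of those of a total library, so the fractions did not overlap. In TPM, the members summed to 2487 to 2825 in polysome and 4869 to 5086 in total libraries, and the median member had a mean of 5.41 TPM in polysome and 15.4 TPM in total mRNA. The ratio of TPM had a median log2 of -1.36 over the members and -0.39 over all genes tested, so TPM moved all genes down by about as much as it moved the members. Under TPM, 21 of the 25 members called higher still had the higher mean in polysome mRNA; the exceptions were Zfp629, Zfp239, Zfp61 and Zfp740. Of the 161 called lower, only Zfp945 had the higher mean TPM in polysome mRNA.

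The choice of members bears on these counts, since the level in total mRNA is the lower part of the ratio. With the 157 Zfp genes that had a mean count of 200 or more in the polysome libraries instead, 81 were called lower, 33 higher, and the median was -0.41. With all 329 Zfp genes that passed the filter on low counts, 225 were called lower, 35 higher, and the median was -1.03. RSEM divides a read pair that fits several genes, and 57 members had such fractional counts in at least 1 library, so their values are uncertain. Their median was -1.69, and the 170 members with whole counts throughout had a median of -0.77, with 115 called lower and 22 higher. Exons of 54 members overlapped an exon of another gene on the opposite strand, and those of 13 members one on the same strand. The paper reports a stranded library kit, but no source used here gives the strand setting of the counting. The 131 members with whole counts and no exon overlap on either strand had a median of -0.87.

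The 8 lowest called members were Zfp808, Zfp966, Zfp935, Zfp445, Zfp442, Zfp97, Zfp871 and Zfp433, with log2 ratios between -6.09 and -4.63. Zfp445, which holds imprints together with Zfp57 and carries 12 fingers, had 1.26, 1.88 and 3.93 CPM (counts scaled to library size; lowest, median and highest of 6) in polysome mRNA, against 74.4, 83.2 and 89.3 CPM in total mRNA. Every polysome library was far below every total library, and the ratio was 36.5-fold lower (log2 -5.19 ± 0.24, SE, n = 6 and 6, adjusted p = 4.0e-08 by edgeR). Zfp57, the other imprint regulator, had 14.7, 15.5 and 18.3 CPM in polysome and 14.8, 19.2 and 20.6 CPM in total mRNA, the fractions overlapped, and it did not pass (log2 -0.19 ± 0.10, adjusted p = 0.102).

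Zfp871, a protein of 15 fingers whose gene lies on chromosome 17, had 2.64, 3.11 and 5.98 CPM in polysome mRNA and 93.9, 99.1 and 105.6 CPM in total mRNA, a ratio 27.95-fold lower (adjusted p = 6.6e-09 by edgeR, the smallest among the members). Of the 8 lowest it had the most CPM in total mRNA, while per length Zfp445 stood higher, at a median of 52.2 TPM against 34.8 TPM. Zfp433, of 17 fingers, had 0.122, 0.470 and 0.992 CPM in polysome mRNA, against 9.40, 10.2 and 11.6 CPM in total mRNA, and a ratio 24.8-fold lower. The fractions did not overlap for either gene.

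The others had fractional counts. Zfp808, with 22 fingers and 35.9% GC, had 0.165, 0.326 and 1.35 CPM in polysome mRNA and 26.5, 30.9 and 35.1 CPM in total mRNA, the lowest ratio of all members (log2 -6.09 ± 0.32). Zfp966 had 46 counts in the 6 polysome libraries together and 1670 in the 6 total libraries, and Zfp935 38 and 1259. For Zfp442 the sums were 79 and 2224, and for Zfp97 they were 68 and 1693. Zfp966 and Zfp935 had a single count in their lowest polysome library, and Zfp935 shares exons with Zfp934 on the same strand. Polysome libraries held 2 to 22 counts of Zfp97, 4 to 34 of Zfp808 and 5 to 21 of Zfp442, and 3 to 25 of Zfp433 above. The size of the ratios of all these genes is therefore loosely fixed.

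The 8 highest called members were Zfp330, Zfp623, Zfp637, Zfp622, Zfp512, Zfp954, Zfp410 and Zfp593, and the mean TPM of each was also higher in polysome mRNA. Zfp330, whose human counterpart is a nucleolar protein and in which the pattern found no finger, had 102.7, 123.3 and 154.6 CPM in polysome mRNA, against 38.4, 42.1 and 43.8 CPM in total mRNA. Every polysome library was above every total library (log2 1.57 ± 0.09, adjusted p = 1.6e-07 by edgeR), but its counts were fractional in 10 of 12 libraries. Zfp623, whose 12 fingers are the most among these 8, had 40.2, 54.6 and 66.8 CPM in polysome and 19.5, 21.03 and 24.2 CPM in total mRNA, a ratio 2.55-fold higher.

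Zfp637 and Zfp622 followed at 2.18-fold and 2.10-fold higher. Zfp622, whose yeast relative works in the maturation of the large ribosomal subunit, had 30.7, 36.0 and 36.9 CPM in polysome mRNA, against 15.6, 16.7 and 17.6 CPM in total mRNA, with no overlap. Zfp410, an activator of the chromatin remodeller gene Chd4, had 77.2, 87.9 and 97.5 CPM in polysome mRNA and 46.6, 49.1 and 51.1 CPM in total mRNA, again apart (1.77-fold). Among all 25 called higher, only Zfp954 matched a KRAB box pattern. It had 17.1, 19.6 and 24.8 CPM in polysome and 9.60, 11.4 and 11.6 CPM in total mRNA (1.78-fold). Exons of Zfp410 and Zfp593 overlap an antisense gene.

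**Figure D2:**
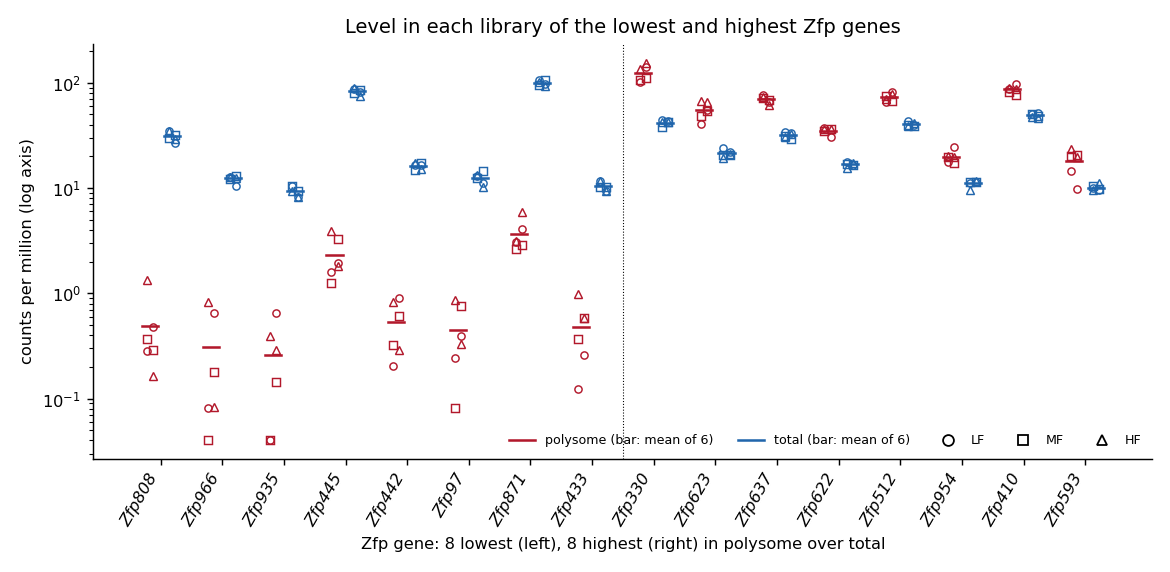
Level in CPM (log axis) of the 8 lowest and the 8 highest called Zfp genes in each of the 6 polysome (red, left of each pair) and 6 total (blue) libraries, with symbols for dose and a bar at the mean. The polysome points of Zfp445 lie between 1.26 and 3.93 and its total points between 74.4 and 89.3; the polysome points of Zfp330 lie between 102.7 and 154.6 and its total points between 38.4 and 43.8.

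By level per length, the most abundant members in total mRNA were Zfp207, Zfp664 and Zfp146. Zfp207, which helps build the mitotic spindle, had 214, 236 and 315 TPM in polysome mRNA, against 215, 218 and 228 TPM in total mRNA, and was called higher (log2 of scaled counts 0.42 ± 0.09, adjusted p = 0.0018). On the TPM scale its fractions overlapped. Zfp664 had 60.6, 65.0 and 81.2 TPM in polysome mRNA and 121.0, 141.2 and 155.5 TPM in total mRNA, and Zfp146 had 14.7, 24.8 and 45.05 TPM and 90.5, 95.8 and 101.5 TPM, with no overlap for either. The least abundant were Zfp619, Zfp850 and Zfp667, with medians of 0.80, 1.16 and 1.35 TPM in polysome and 3.69, 4.70 and 4.75 TPM in total mRNA. Across the 227 genes the ratio had little relation to the level in total mRNA (Spearman's rho 0.11, across genes, which are not independent).

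The role lists are small. Their counts stand beside 38.4% of all genes tested and 70.9% of the members called lower, and 32.7% and 11.0% called higher. List genes under the minimum are not counted. Of these, Zfp36 (RNA) and Zfp503 (neural) were called higher. Zfp521 (neural) and Zfp809 (a silencer) were called lower, and Zfp711 (chromatin) was not tested. Of 8 members described that act on RNA or the ribosome, 3 were called higher and 3 lower, shares near those of all genes, with a median log2 of 0.23. Higher were Zfp622, Zfp593, a factor of large-subunit assembly by its yeast relative (1.73-fold), and Zfp830, whose human counterpart is found with the spliceosome (1.53-fold; 20.0, 23.8 and 29.6 CPM in polysome against 14.9, 15.2 and 17.6 CPM in total mRNA). Lower were Zfp638, whose human counterpart silences retroviral DNA, at 6.38-fold, Zfp326, part of a complex that joins transcription to splicing in human cells, at 2.58-fold, and Zfp106, an RNA-binding protein, at 1.27-fold, a call lost without polysome LF replicate 1. Zfp638 had 15.8, 21.03 and 34.4 CPM in polysome mRNA, against 131.1, 150.0 and 155.8 CPM in total mRNA. Zfp598, the ligase that marks collided ribosomes, did not pass, with 18.4, 48.6 and 57.0 CPM in polysome and 32.0, 32.3 and 34.8 CPM in total mRNA (adjusted p = 0.0555 by edgeR), and neither did Zfp346, a protein that binds double-stranded RNA (log2 0.06 ± 0.11).

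Among the 9 neural regulators described, 6 were called lower and none higher, close to the members' own share, and the median log2 was -0.96, against -1.03 over the members. Zfp462, a regulator of chromatin in neural development, had 20.1, 23.1 and 30.9 CPM in polysome mRNA and 107.3, 122.0 and 130.7 CPM in total mRNA, 5.09-fold lower. Zfp488, a partner of Olig2 in the oligodendrocyte lineage, was 3.87-fold lower, with fractional counts in all 12 libraries. Zfp365, Zfp335, which neural progenitors need to proliferate, and Zfp536, a repressor of neuronal differentiation, were 2.17-fold, 2.07-fold and 1.95-fold lower, and Zfp24, which is needed for myelination, was 1.52-fold lower. The counts of Zfp335 were also fractional in all 12 libraries, and its exons overlap antisense genes. The values of Zfp423, Zfp703 and Zfp219 were log2 -0.36 ± 0.16, -0.07 ± 0.10 and -0.10 ± 0.19, and none passed.

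Of the 10 regulators of promoters and chromatin, 7 were called lower and none higher, again close to the members' own share, with a median log2 of -0.72. Zfp644, which works with the H3K9 methyltransferases, had 8.09, 12.96 and 19.4 CPM in polysome mRNA, against 68.0, 75.2 and 78.6 CPM in total mRNA, 5.75-fold lower. Zfp281 was 3.78-fold lower, Zfp148 and Zfp131 2.24-fold and 2.21-fold, Zfp687 1.71-fold, Zfp217 1.58-fold and Zfp143, an activator at many promoters, 1.21-fold. The call of Zfp143 was lost in 13 of 17 alternative fits. Zfp384, Zfp592 and Zfp827 lay between -0.22 and -0.06 and were not called.

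Of the division and ligase genes, Zfp451, a SUMO ligase, was 1.75-fold lower and Zfp91, a ubiquitin ligase, 1.33-fold lower, with the call of Zfp91 lost without polysome LF replicate 1, beside Zfp207 above. Zfp369, one of a pair of partners of the neurotrophin receptor p75, was 3.31-fold lower, and the other, Zfp110, did not pass with 31.9, 52.9 and 63.3 CPM in polysome and 41.1, 41.8 and 42.5 CPM in total mRNA. Zfp568, which represses a placental transcript of Igf2, was 1.37-fold lower. Of the 19 genes of the corepressor machinery that KRAB proteins use, which are no members, 13 were called lower and 3 higher, with a median log2 of -0.78; Trim28 itself did not pass (log2 0.09 ± 0.17).

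Gene length was considered next, since in this comparison short mRNAs stood high and long mRNAs low. Among the members, the median log2 ratio was -0.86 for the 32 genes under 2000 bases, -0.995 for 76 from 2000 to 3000, -0.77 for 51 from 3000 to 4000, -1.09 for 46 from 4000 to 6000 and -0.95 for 22 at 6000 or more. Among protein-coding genes other than Zfp, of any level tested, the medians of the same classes were 0.56, 0.13, -0.20, -0.58 and -1.05. Among those with a mean total count of 200 or more, as for the members, they were 0.60, 0.18, -0.15, -0.55 and -1.06. Short members therefore lay below other short genes, and members of 6000 bases or more had a median close to that of other long genes. Spearman's rho with length was -0.07 over the 227 members and -0.52 over 12669 other protein-coding genes, given as a description across genes. After a trend on length over all genes was removed, the median of the members was -0.69, against 0.02 for all genes.

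**Figure D3:**
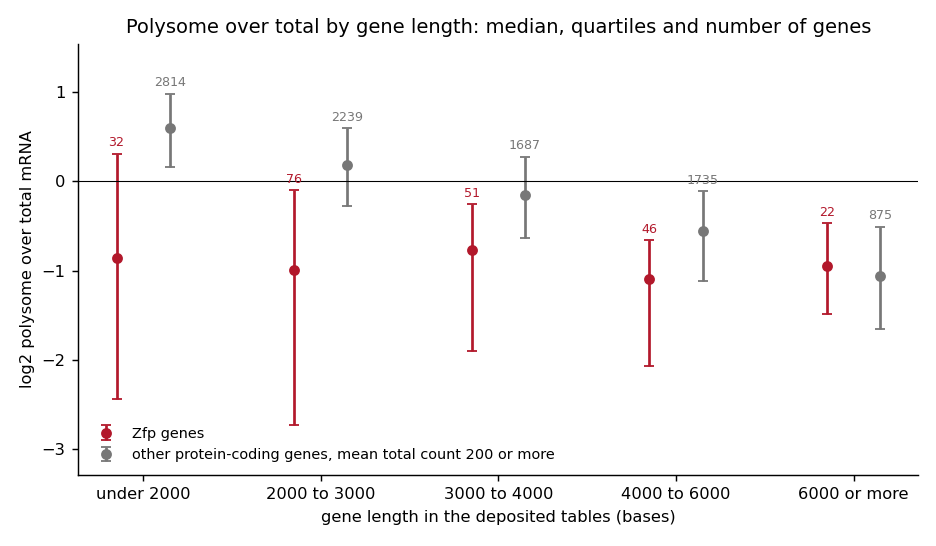
Log2 ratio of polysome to total mRNA (vertical axis; median with quartiles, and the number of genes above) by class of gene length in bases (horizontal axis) for the Zfp genes (red) and the other protein-coding genes with a mean total count of 200 or more (grey). The medians of the Zfp genes stay between -1.09 and -0.77, and those of the others run between 0.60 for the shortest and -1.06 for the longest class.

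The length classes differed between members with and without a match to a wider KRAB box pattern, which was added after the data had been seen. Those with no match to the wider KRAB pattern ran with length as other genes do, with medians of 0.37, -0.16, -0.42, -1.05 and -1.09 in the 5 classes (12, 38, 29, 25 and 17 genes). Those with a match were low in the shorter classes too, with medians of -1.71, -2.22, -1.79, -1.92 and -0.46 (20, 38, 22, 21 and 5 genes). With the first pattern, members without a match did not fall steadily with length. Their medians were -0.95, -0.69, -0.44, -1.07 and -1.09 (21, 50, 33, 27 and 17 genes). Members with a first-pattern match had medians of -0.77, -2.09, -1.84, -1.64 and -0.46 (11, 26, 18, 19 and 5 genes).

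The KRAB box was searched in the translated longest coding sequence. With the first pattern, 79 members had a match and a median log2 of -1.63, with 66 called lower and 1 higher, and the 148 others had a median of -0.78, with 95 lower and 24 higher. That pattern missed KRAB boxes with another residue inside the motif, so a wider one was added after the data had been seen. It matched 106 members, with a median of -1.88, 92 called lower and 1 higher, and left 121 with a median of -0.53, 69 lower and 24 higher. Either pattern can miss a KRAB box, so a member without a match may still carry one. Among members with whole counts the medians by the wider pattern were -1.50 for the 78 with a match and -0.51 for the 92 without. Outside the Zfp names, 33 protein-coding genes at the same level matched it, and all 33 were called lower, with a median of -1.87.

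The number of fingers ran the same way. The median log2 was -0.18 for the 30 members with 0 to 3 fingers, -0.41 for 44 with 4 to 8, -0.85 for 76 with 9 to 12, -1.49 for 43 with 13 to 16 and -2.13 for 34 with 17 or more. Spearman's rho over the 227 members was -0.44. Within the 121 members without a KRAB match the medians of these classes were -0.12, -0.41, -0.35, -1.05 and -1.35.

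The relation with coding GC content was closer than that with length or finger number. In classes set after the data had been seen, all 38 members under 40% GC were called lower, with a median log2 of -2.94, and so were 53 of 56 between 40% and 45%, with a median of -1.92. The medians were -0.67 for 45 members between 45% and 50%, -0.20 for 36 between 50% and 55% and -0.27 for 52 at 55% or more, and of these last 2 classes 10 members each were called higher. Spearman's rho was 0.72 over the 227 members, 0.68 over the 170 with whole counts, 0.74 over the 106 with a wide KRAB match and 0.47 over the 121 without. It was 0.10 over 12647 other protein-coding genes of any level tested, whose medians in the 5 classes were -2.01, -0.61, -0.01, 0.20 and 0.01. Among those with a mean total count of 200 or more the medians were -1.82, -0.55, -0.002, 0.23 and 0.04. The few other genes under 40% GC were thus low as well (132 of 157 of any level called lower).

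**Figure D4:**
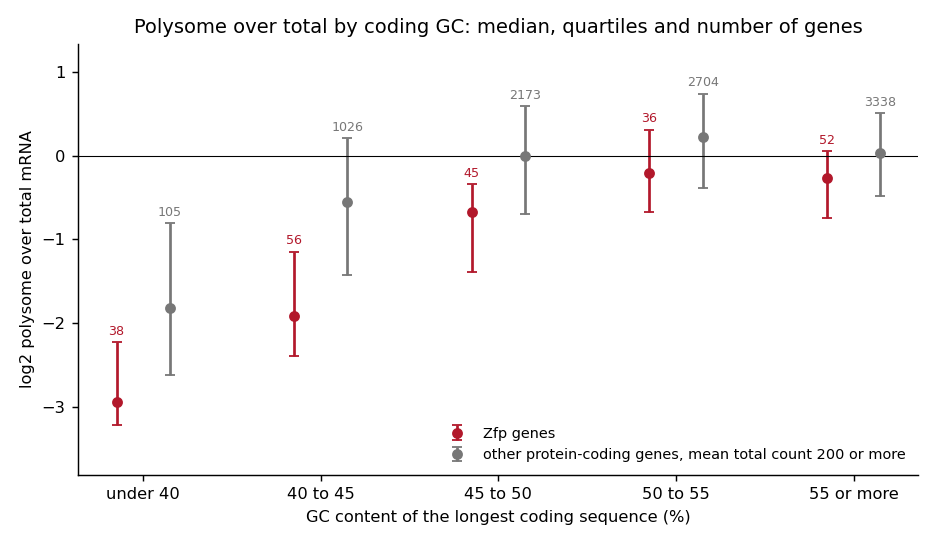
Log2 ratio of polysome to total mRNA (vertical axis; median with quartiles, and the number of genes above) by class of GC content of the coding sequence in percent (horizontal axis) for the Zfp genes (red) and the other protein-coding genes with a mean total count of 200 or more (grey). The median of the Zfp genes is -2.94 under 40% and -0.27 at 55% or more.

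Within a GC class, the KRAB box separated the members little. Between 40% and 45% GC the medians were -1.97 for the 36 members with a wide match and -1.75 for the 20 without, and between 45% and 50% they were -0.64 for 24 and -0.88 for 21. GC content was lower in the members with a match, with a median of 42.6% against 52.9% in those without. The codons of the fingers and the rest of the coding sequence gave like relations with the ratio (rho 0.71 over the 222 members with a finger and 0.72 over 227), as did the last positions of the codons alone (0.70). GC content, finger number and KRAB box move together in these genes, and the part of each in the ratio was not tested.

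The members also differed by where their genes lie. Chromosome 17 held 33 members with a median log2 of -2.21 and a median coding GC of 39.3%, chromosome 4 held 11 with -2.28 and chromosome 13 held 14 with -1.91. Chromosome 7, with the most members at 49, had a median of -0.73 and a coding GC of 49.6%, and the 13 members of chromosome 6 had a median of -0.02 and a coding GC of 53.8%. The 113 members whose start lay within 100 kb of another Zfp gene had a median of -1.28, and the 114 others -0.88. This order was the other way within each KRAB class: with a wide match, the medians were -1.59 for 77 genes near another and -2.15 for 29 others, and without a match -0.40 for 36 and -0.65 for 85.

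Zinc finger genes under other names were set beside them. The 18 Zfp genes with a letter after the number had a median of -1.51, the 31 Zbtb genes -0.46, the 7 Zscan genes -0.50, the 6 Zkscan genes -0.26, the 10 Klf genes -0.88 and the 4 Sp genes -1.12. Among all other protein-coding genes at the same level with 5 or more fingers, 85 of 111 were called lower and 8 higher, with a median of -1.07.

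At the single doses the counts were alike. At LF, 151 members were called lower and 13 higher, beside 28.5% and 25.0% of all genes tested; at MF, 146 and 16, beside 29.3% and 26.0%; at HF, 135 and 19, beside 30.7% and 25.7%. The medians were -0.998, -1.05 and -0.956. In 124 members (54.6%, against 21.5% of all genes tested) the call was lower at every dose, in 8 it was higher at every dose (3.52%, against 17.5%), and no member was called lower at one dose and higher at another. With the LF libraries alone in the fit, 89 members were called lower and 5 higher at LF, beside 1838 and 1582 of the 13754 genes tested. The counts called higher at a dose became 22 to 31 without polysome LF replicate 1 or 2, and in most cases 8 to 10 without a library of the dose itself.

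**Figure D5:**
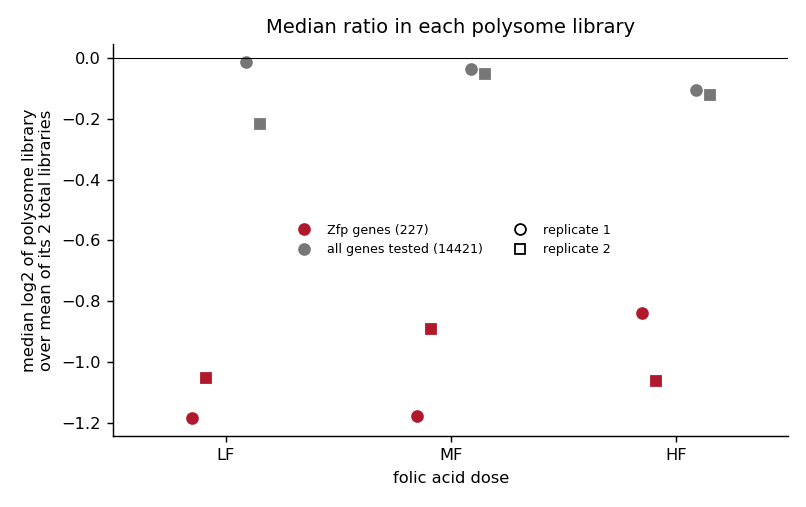
Median log2 ratio of each polysome library to the mean of the 2 total libraries of its dose (vertical axis) at LF, MF and HF (horizontal axis), for the 227 Zfp genes (red) and all 14421 genes tested (grey), with circles for replicate 1 and squares for replicate 2. The Zfp medians lie between -1.19 and -0.84 in all 6 libraries and the medians of all genes between -0.22 and -0.01.

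By library, the median log2 ratio of the members was -1.19 and -1.05 at LF, -1.18 and -0.89 at MF and -0.84 and -1.06 at HF, so the doses overlapped. In a fit without any LF library, added after the data had been seen, 158 members were called lower and 32 higher over MF and HF. The median was -0.95. Of the 14243 genes tested in that fit, 5514 were called lower and 5115 higher. Polysome LF replicate 2 had the narrowest spread between members with and without a wide KRAB match, with medians of -1.43 and -0.71, against -2.24 and -0.52 in polysome LF replicate 1.

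Folate dose was then compared within total mRNA. No member was called at LF or at HF against MF, where 0.00719% and 0.0863% of all genes were called by edgeR. DESeq2 and limma voom called no member either. The edgeR fit without total HF replicate 2 did not keep this at HF. It leaves a single library at HF, and the members' median log2 in it was -0.01. With all libraries, 8 members (3.52%) at LF and 7 (3.08%) at HF had an unadjusted p under 0.05 by edgeR, against 6.27% and 6.98% of all genes. The members' median log2 was 0.02 at LF and -0.02 at HF, and all lay between -0.34 and 0.24. Both comparisons share the MF libraries. Nearest to a call was Zfp704, a transcription factor gene, with 151.4 and 136.9 CPM at HF against 119.4 and 124.5 CPM at MF. Both HF libraries were above both MF libraries (log2 0.24 ± 0.06), but the adjusted p was 0.161 by edgeR. Its counts were fractional in 11 of 12 libraries, and its exons overlap an antisense gene. Zfp605 had log2 -0.32 ± 0.12 and Zfp703 -0.20 ± 0.07 at HF, and at LF Zfp799 had 0.20 ± 0.07, Zfp182 -0.34 ± 0.12 and Zfp617 0.18 ± 0.07, none past the test (adjusted p between 0.517 and 0.691 by edgeR).

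In polysome mRNA, again no member was called by edgeR at LF or HF against MF, beside 0.0223% and 0.0% of all genes; 226 of 227 members were tested, without Zfp935. At an unadjusted p under 0.05 there were 16 (7.08%) at LF and 0 at HF, against 17.3% and 3.37% of all genes. DESeq2 called 4 members (1.77%) at LF and 0 at HF, against 4.97% and 0.179% of all genes, and limma voom 0 and 0. At HF, 5 members were called without polysome LF replicate 1, 4 without polysome LF replicate 2 and 4 with only the compared libraries, or 2.2%, 1.76% and 1.79%, against 5.12%, 5.68% and 5.34% of all genes. The median log2 was 0.04 at LF and 0.12 at HF, where 144 of 226 were above 0. Neither sign was stable, since leaving out libraries in turn gave medians of -0.22 to 0.31 at LF and -0.05 to 0.25 at HF, below 0 at LF without polysome LF replicate 2 or MF replicate 1 and at HF without polysome MF replicate 1 or HF replicate 1. Zfp64, a zinc finger transcription factor, had the smallest p at LF: its levels were 13.3 and 9.63 CPM in LF and 26.7 and 25.3 CPM in MF polysomes. The groups were apart by more than the spread within either (log2 -1.19 ± 0.27), and the adjusted p was 0.144. Its HF polysomes held 18.7 and 17.1 CPM (log2 -0.53 ± 0.26 against MF), and in total mRNA all 6 libraries lay between 14.8 and 15.1 CPM. Zfp367 had 41.9 and 55.9 CPM in LF and 28.1 and 26.4 CPM in MF polysomes (adjusted p = 0.178), and Zfp219 had 39.9 and 15.3 CPM in LF and 69.4 and 80.9 CPM in MF polysomes (adjusted p = 0.180 by edgeR). At HF, Zfp84 and Zfp330 had log2 values of 0.56 ± 0.27 and 0.42 ± 0.21, with an adjusted p of 0.948 each.

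Translation efficiency (TE) is polysome mRNA over total mRNA of a gene, and its change with dose was read from the interaction of fraction and dose. No member was called at LF or HF against MF, beside 0.236% and 0.0% of all genes tested by edgeR. There were 14 members (6.17%) at LF and 3 (1.32%) at HF with an unadjusted p under 0.05, against 15.8% and 4.15% of all genes. DESeq2 called 3 members (1.32%) at LF and 0 at HF, against 4.49% and 0.208% of all genes, and limma voom 0 and 0. The smallest adjusted p was that of Zfp64 at LF, 0.0878, for a log2 change of -1.18 ± 0.24. Its ratio of CPM was 0.889 and 0.644 in the LF polysome libraries against 1.78 and 1.69 in the MF ones, with HF between them at 1.26 and 1.15. The change of Zfp182 at LF was 1.86 ± 0.57, on ratios of 0.0636 and 0.119 against 0.0118 and 0.0367, and that of Zfp367 was 0.71 ± 0.23, with adjusted p of 0.183 and 0.199. At HF, Zfp507 had 0.49 ± 0.17, Zfp383 0.59 ± 0.25 and Zfp398 0.62 ± 0.27, with an adjusted p of 0.982 each.

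The LF result depended on single polysome libraries. Without polysome LF replicate 1, which leaves replicate 2 alone at that dose with its spread taken from the other groups, 91 members (40.1%) were called in TE, 54 higher and 37 lower, against 46.2% of all genes, and in polysome mRNA 89 (39.2%), against 50.5%. Without polysome LF replicate 2, 5 members (2.2%) were called in each, against 6.76% and 6.83% of all genes. The same omissions gave 2 and 3 calls in TE at HF, or 0.881% and 1.32%, against 2.88% and 2.99% of all genes. The median TE change of the members at LF was 0.26 without replicate 1 and -0.22 without replicate 2, with 0.03 in the whole set. At HF the median TE change was 0.11, with 150 of 227 members above 0 and a median of 0.00 over all genes. It lay between -0.03 and 0.29 when libraries were left out in turn.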

How the data were processed

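The authors trimmed the reads, aligned them with Bowtie2 2.2.9 to mm10 and deposited RSEM 1.3.0 tables per library. The deposited expected counts are estimates in which a read pair that fits several genes is divided between them. The deposited tables also hold TPM, used here for levels per length, FPKM, which was not used, and an effective length, an other measurement that was not used. FPKM in the deposited tables is another level per length, made by the authors' RSEM run. The strand setting and annotation release were not given in the sources used here.

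Of the gene identifiers, 42462 matched GENCODE M21 and 970 did not. Expected counts were rounded and tested with edgeR 4.0.16 (R 4.3.3): TMM, filterByExpr, robust dispersion and quasi-likelihood fits. Polysome against total mRNA and TE came from all 12 libraries (14421 genes, 6 residual degrees of freedom), total mRNA from 6 (13912 genes, 3) and polysome mRNA from 6 (13433 genes, 3). The biological coefficient of variation was 0.164, 0.0433 and 0.231. SE is the absolute log2 change over the root of F. CPM are scaled by TMM over the 12 libraries. Counts have no molecular identifiers, so depth gives only the counting error. Scripts were tested on simulated data.

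Fingers and KRAB boxes were found in translations of the longest GENCODE coding sequence; the plan had named RefSeq proteins, which were not used here. The finger pattern asks for a pair of cysteines 2 to 4 residues apart and a pair of histidines. A count is whole within 0.005. The TPM ratio is log2(TPM + 0.1). Named genes were the 8 lowest and 8 highest called members, the 3 smallest p of each dose comparison, the 3 highest and 3 lowest levels, the 3 on either side of the minimum and members of role lists; others are named where a count singled them out. The members, lists and rules were chosen with earlier results of these data known. Alternatives were DESeq2 1.42.0, its size factors, limma voom (limma 3.58.1), no filter on low counts, no fold threshold, other memberships, fits of fewer libraries and a replicate block.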

Additional observations from a re-analysis of the deposited data

How the results depend on the processing

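Of the 161 members called lower in polysome mRNA over the 3 doses, 154 were called lower in each of 17 alternative fits, as were 20 of the 25 called higher. A minimum of 500 counts left 123 members, so the counts were smaller. Of these 123, 87 were lower and 13 higher over the doses, 83 and 8 at LF, 79 and 7 at MF and 75 and 11 at HF. Membership by polysome counts gave 81 lower over the doses. With only the compared libraries, 89 were lower and 5 higher at LF, beside 1838 and 1582 of 13754 genes. Higher were 26 at MF, beside 4916 of 13804 genes, and 31 at HF, beside 4918 of 13785 genes. In polysome mRNA at HF, 4 members were called (1.79%, against 5.34% of all genes). The median over the doses, -1.03, moved to -0.77 with whole counts, -0.41 with membership by polysome counts, -0.69 without the length trend and -1.36 for the TPM ratio. The median of members with a KRAB match moved to -1.88 with the wider pattern and -1.44 with whole counts, and of those without to -0.53 and -0.61. Leaving out libraries in turn gave 8 to 25 members higher at LF, 9 to 29 at MF and 8 to 31 at HF, and in LF or HF against MF 0 to 1 called in total mRNA at HF, 0 to 89 and 0 to 5 in polysome mRNA and 0 to 91 and 0 to 3 in TE; without total HF replicate 2 the 1 call appeared. At LF, DESeq2 called 4 members in polysome mRNA and 3 in TE, or 1.77% and 1.32%, against 4.97% and 4.49% of all genes. With no filter on low counts 3 and 1 were called, or 1.32% and 0.441%, against 2.71% and 1.05% of all genes. For polysome over total mRNA, the log2 ratio changed sign when libraries were left out in turn for Zfp219 (-0.338 to 0.0805), Zfp346 (-0.00744 to 0.165) and Zfp703 (-0.122 to 0.012), none of which was called. The correlations of replicate deviations between groups lay between -0.14 and 0.138, which cannot show whether same-numbered libraries share a culture or run. The replicate block gave 163 lower and 25 higher over the doses and 1 call in polysome mRNA at LF, with no other call in a dose comparison. Over all genes it called 1.72% in polysome mRNA at LF, against 0.0223% without the block. In total mRNA it called 0.259% at LF and 0.625% at HF, against 0.00719% and 0.0863%. In TE at LF it called 0.0347%, against 0.236%. The causes were not tested. The LF comparisons are limited by 2 polysome libraries that differ from each other.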
